A study of Gallus gallus with 2 samples.

Results

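The microRNA hairpins of the miR-17-92 cluster on chromosome 1 and of its paralogue on chromosome 4 were examined in 6C2 cells. They were the rows of the gene table whose symbol starts with gga-mir and whose start lies within the limits of either locus. The rule found 9 of 16464 analysed rows, 6 on chromosome 1 and 3 on chromosome 4. The table held 438 rows with a gga-mir symbol, called microRNA rows here. They carried 429 distinct symbols, so some symbols name more than 1 row. Another 11 rows with a gga-let symbol are microRNAs too but are not among the 438.

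6C2 is a chicken erythroleukemia line of transformed red cell precursors, which the labels describe as cycling and halted at the stage of the erythroid colony-forming unit. Total RNA of 1 group of 2 samples, replicate 1 and replicate 2, was sequenced after ribosomal RNA depletion, with no treatment or other genotype named. The table held 40064443 reads of replicate 1 and 30668939 reads of replicate 2. Separate cultures are not named in the labels, so the difference between the samples may be technical.

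MicroRNAs of a cluster are made as 1 long primary transcript. The nuclease DROSHA and its partner DGCR8 cut hairpins out of it in the nucleus, and DICER1 then trims each hairpin to the short mature form that Argonaute proteins carry to target messages. The miR-17-92 cluster is an oncogenic microRNA locus in mammals, activated by MYC and amplified in some lymphomas, and loss of it impairs early B cell development in mice. In human cells its relative is the miR-106a-363 cluster on the X chromosome. The hairpins fall into families that share a seed, the short stretch that pairs with targets: the miR-17 family (miR-17, miR-20a, miR-20b and miR-106), the miR-18 family, the miR-19 family and the miR-92 family.

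Values are RPKM, the authors' read counts scaled to the listed length and to the library total, given for both samples or as mean ± SD (n = 2). Detected means that both samples reached an RPKM of 1. Of the 9 hairpins 8 were detected, against 23.1% of the 438 microRNA rows and 52.6% of all rows. In a short row 1 RPKM takes few reads, and gga-mir-19a, 80 bp long, had 0.94 in replicate 1 on 3 reads. All detected rows had a median length of 1691 bp, so detection over all rows is not at like numbers of reads. The hairpins ranged from 1.29 ± 0.495 for gga-mir-19a to 246.6 ± 43.0 for gga-mir-20b. The table does not tell reads of the primary transcript, the hairpin and the mature microRNA apart. The sources used here do not say how reads that match more than 1 hairpin were counted, so splits between close relatives are uncertain.

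On chromosome 1 all 6 hairpins were listed on the minus strand within 796 bases, with gaps of 35 to 88 bases between them. In the direction of transcription the order was gga-mir-17, gga-mir-18a, gga-mir-19a, gga-mir-20a, gga-mir-19b and gga-mir-92. On chromosome 4 the order on the minus strand was gga-mir-106, gga-mir-18b and gga-mir-20b within 393 bases. Each hairpin of the chromosome 4 locus thus has a relative on chromosome 1 from the same family. None of the 9 hairpins overlapped another row (0 of 9), so no row of a host transcript was at hand. These coordinates are as deposited, and the sources used here name no build for them. All 9 symbols had 1 match each in the RefSeq gene table of GRCg7b, on the same chromosomes. That table also places MIR19B-2, MIR92-2 and MIR363 beside the chromosome 4 hairpins, and these were not analysed here.

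The miR-17 family, whose reported targets in mammals include inhibitors of the cell cycle, held most of the reads of the analysed hairpins. It and the miR-18 family had analysed rows on both chromosomes, whereas the miR-19 and miR-92 families had them on chromosome 1 only. Shares of the families are thus not over like parts. The miR-17 family is described first. This family took 58.2% of the reads of the 9 hairpins in replicate 1 (exact Clopper-Pearson 95% interval 56.5 to 59.9%) and 54.6% in replicate 2 (52.5 to 56.7%). Intervals here and below cover counting error only and take each read as independent. PCR copies are not independent molecules, so where reads are such copies the intervals are too narrow. gga-mir-20b (ENSGALG00000021725, chromosome 4, 3970047 to 3970131) had 924 and 552 reads, or 277 and 216 RPKM. It was the highest of the 9 in replicate 1 and was second to gga-mir-92 in replicate 2. gga-mir-106 (ENSGALG00000018325, 3970359 to 3970439) had 457 and 264 reads, or 144 and 109 RPKM.

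The chromosome 1 members of that family stood lower. gga-mir-17 (ENSGALG00000018253, chromosome 1, 152248781 to 152248865), the hairpin that opens the cluster, had 245 reads in either library, which is 73.5 and 95.9 RPKM. gga-mir-20a (ENSGALG00000018250, 152248306 to 152248403) had 214 and 183 reads, or 55.6 and 62.1 RPKM. Both samples of gga-mir-17 lay above both of gga-mir-20a, and all of these lay under gga-mir-106 and gga-mir-20b. The chromosome 4 hairpins held 75.1% of the miR-17 family reads in replicate 1 (interval 73.0 to 77.0%) and 65.6% in replicate 2 (62.9 to 68.2%).

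The miR-18 family differs from the miR-17 family within the seed and lies second in either cluster as listed. gga-mir-18b (ENSGALG00000018324, chromosome 4, 3970228 to 3970311) had 344 and 262 reads, or 104.4 and 103.8 RPKM. gga-mir-18a (ENSGALG00000018252, chromosome 1, 152248626 to 152248718) had 162 and 118 reads, or 44.3 and 42.2 RPKM. Both hairpins were close in the samples, and 68.0% and 68.9% of the family's reads came from chromosome 4.

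The miR-19 family, which mediates much of the oncogenic action of the cluster in mouse lymphoma, was the lowest of the 4 families among the analysed hairpins. MIR19B-2 of chromosome 4 was not analysed here, and whether reads that match it lie in gga-mir-19b is not known. The family held 2.06% of the hairpin reads in replicate 1 (interval 1.59 to 2.61%) and 3.95% in replicate 2 (3.19 to 4.83%). gga-mir-19b (ENSGALG00000018249, chromosome 1, 152248183 to 152248269) had 62 and 86 reads, or 18.2 and 32.9 RPKM. gga-mir-19a (ENSGALG00000018251, 152248492 to 152248572) had 3 and 4 reads, or 0.94 and 1.64 RPKM, and was the member that missed detection. The ratio of gga-mir-19b to gga-mir-19a was 19.2 in replicate 1 (interval 6.28 to 95.8) and 20 in replicate 2 (7.53 to 75.1). The intervals are wide because gga-mir-19a had so few reads.

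The miR-92 family was represented by gga-mir-92 (ENSGALG00000018248, chromosome 1, 152248070 to 152248147), the hairpin that closes the chromosome 1 cluster. It had 750 and 564 reads, or 245 and 241 RPKM. The samples were close. It held 52.2% of the reads of its locus in replicate 1 (interval 49.6 to 54.8%) and 47.0% in replicate 2 (44.1 to 49.9%). MIR92-2 of chromosome 4 was not analysed here, and whether reads that match it lie in gga-mir-92 is not known.

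Along the chromosome 1 locus, mean RPKM in the direction of transcription was 84.7, 43.3, 1.29, 58.8, 25.5 and 243. The levels neither fell nor rose steadily with position. The closing hairpin stood 3.34 times as high as the opening one in replicate 1 (interval 2.89 to 3.87) and 2.51 times in replicate 2 (2.16 to 2.93). On chromosome 4 the means in the same direction were 126, 104 and 247, and gga-mir-20b was 1.93 times gga-mir-106 in replicate 1 (1.72 to 2.16) and 1.99 times in replicate 2 (1.72 to 2.31). In either locus the last of the listed hairpins was thus the highest, as the plot of hairpin levels shows in both samples. On chromosome 4 this holds for the analysed hairpins only, since RefSeq lists MIR19B-2, MIR92-2 and MIR363 past gga-mir-20b. By that list gga-mir-20b does not close its cluster, whereas gga-mir-92 does close its own.

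**Figure D1:**
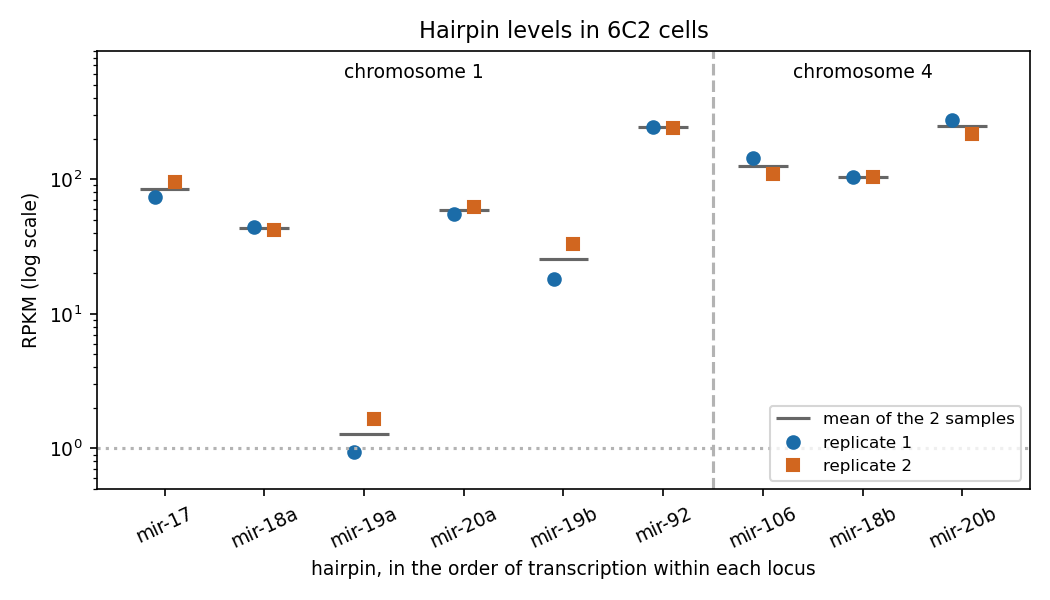
RPKM on a log axis of the 9 hairpins in the order of transcription within each locus, with circles for replicate 1, squares for replicate 2 and a bar for the mean (the dotted line marks 1 RPKM). gga-mir-19a stands at 0.94 and 1.64, while gga-mir-92 and gga-mir-20b stand above 200 in both samples.

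For each of the 3 paralogue pairs the chromosome 4 hairpin was the higher one in both samples. gga-mir-20b was 4.99 times gga-mir-20a in replicate 1 (exact 95% interval 4.29 to 5.81) and 3.48 times in replicate 2 (2.94 to 4.14). gga-mir-18b was 2.35 times gga-mir-18a in replicate 1 (1.95 to 2.85) and 2.46 times in replicate 2 (1.97 to 3.09). For these pairs the interval stayed above 1 in both libraries. gga-mir-106 was 1.96 times gga-mir-17 in replicate 1 (1.67 to 2.30) but 1.13 times in replicate 2, where the interval of 0.947 to 1.35 included 1. A ratio within a sample does not depend on the library total, but it does rest on how reads of near-identical hairpins were split.

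**Figure D2:**
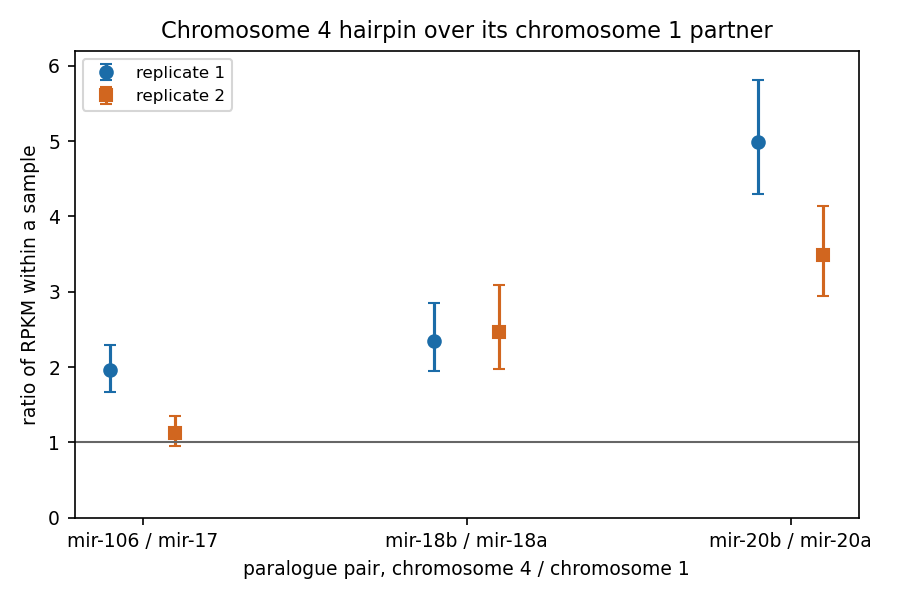
Ratio of the RPKM of each chromosome 4 hairpin to that of its chromosome 1 partner in replicate 1 (circles) and replicate 2 (squares), with exact 95% counting intervals. The mir-20 pair stands at 4.99 and 3.48, and the mir-106 to mir-17 ratio stands at 1.96 and 1.13, with an interval that reaches the line at 1 in replicate 2.

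The summed RPKM of the chromosome 1 hairpins was 438 in replicate 1 and 476 in replicate 2. For the 3 chromosome 4 hairpins the sums were 525 and 428. By these hairpins the higher locus differed between the samples, with MIR19B-2, MIR92-2 and MIR363 of chromosome 4 not analysed. Chromosome 4 held 54.6% of the hairpin reads in replicate 1 (interval 52.8 to 56.3%) and 47.3% in replicate 2 (45.3 to 49.4%), and these intervals did not overlap. This compares 2 libraries and not conditions. Over all rows with at least 20 reads, the counts of these libraries also differed beyond sampling noise.

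Ranked by mean RPKM among the 438 microRNA rows, of which 206 had 0 reads in both samples, 7 of the 9 hairpins were among the 20 highest and 3 among the 10 highest. gga-mir-20b ranked 4 and gga-mir-92 ranked 5, below gga-mir-155 at 1434 and 1221 RPKM, the mitochondrial row listed as gga-mir-3527 at 767 and 883, and gga-mir-103-2 at 537 and 454. The gga-let rows were not ranked, and of these gga-let-7f, with a mean of 294 RPKM, stood above the means of gga-mir-20b and gga-mir-92. The next ranked row below gga-mir-92 was the 67 bp row of gga-mir-24 at 159 and 137. A second row of that symbol, 4761 bp long, stood at 3.3 and 3.13. gga-mir-106 ranked 10, between gga-mir-130b at 135 and 122 and gga-mir-107 at 130.0 and 94.1. These neighbours and gga-mir-106 overlapped over their 2 samples.

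gga-mir-18b ranked 12, between gga-mir-107 and gga-mir-16c, the latter at 90.3 and 95.9. gga-mir-17 ranked 14 and gga-mir-20a ranked 15, followed by the 68 bp row of gga-mir-1306 at 48.9 and 57.1 (a second row, of 2561 bp, ranked 28). The samples of gga-mir-16c lay within the range of gga-mir-17, so the order of these rows is not settled. gga-mir-18a ranked 19, between gga-mir-130a at 50.1 and 38.5 and gga-mir-15b at 42.5 and 38.0. gga-mir-19b ranked 32, between gga-mir-29b-1 at 27.7 and 25.9 and gga-mir-30e at 30.5 and 19.7. At rank 108, gga-mir-19a stood between gga-mir-146a and gga-mir-1765, each with 4 and 5 reads.

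**Figure D3:**
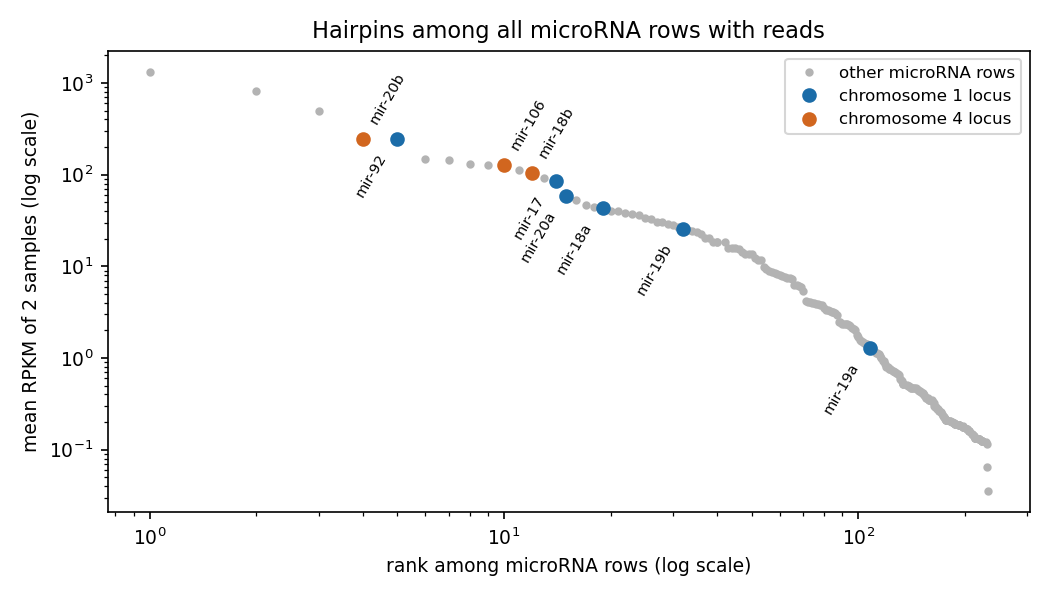
Mean RPKM of the 2 samples against rank for the microRNA rows with reads, both on log axes, with the chromosome 1 hairpins in blue, those of chromosome 4 in orange and other rows in grey. Of the 9 hairpins, 7 lie among the first 20 ranks, and gga-mir-19a lies at 108.

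The 9 hairpins held 5.60% of all reads in microRNA rows in replicate 1 (interval 5.41 to 5.79%) and 4.95% in replicate 2 (4.76 to 5.16%). That total leaves out the gga-let rows. It is mostly gene models of 200 bp or more that carry a microRNA symbol, 18 of the 438 rows. Against rows under 200 bp, a limit chosen after the values were seen, the share was 21.8% (21.2 to 22.5%) and 23.8% (22.9 to 24.6%). Of all reads in the libraries the hairpins held 0.00789% and 0.00743%.

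The ratio of the 2 libraries, as the share of library reads in replicate 1 over that in replicate 2, was near 1 for gga-mir-92 at 1.02 (interval 0.911 to 1.14), gga-mir-18b at 1.01 (0.853 to 1.19) and gga-mir-18a at 1.05 (0.824 to 1.34). gga-mir-106 at 1.33 (1.14 to 1.55) and gga-mir-20b at 1.28 (1.15 to 1.43) were higher in replicate 1. gga-mir-17 at 0.765 (0.639 to 0.918) and gga-mir-19b at 0.552 (0.392 to 0.774) were higher in replicate 2. The intervals of gga-mir-20a and gga-mir-19a included 1.

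Counted by whether the interval excluded 1, 2 of the 8 detected hairpins were higher in replicate 1, against 15.1% of the other 93 detected microRNA rows. Another 2 were higher in replicate 2, against 12.9%. These other rows had median reads of 61 and 42, and all 8 detected hairpins had more, so the shares are not at like depth. Of these 8 hairpins 1, gga-mir-19b, differed by at least 1.5-fold in RPKM, against 36.6% of the other rows. The undetected gga-mir-19a also differed by more than that, on 3 and 4 reads. The median ratio of the other 93 rows was 1.02, with quartiles of 0.771 and 1.30. Of these, the 77 rows under 200 bp, like the hairpins, had a median of 1.12, with quartiles of 0.804 and 1.37. Thus gga-mir-106 lay above the upper quartile of the 93 rows but under that of the 77 short rows.

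**Figure D4:**
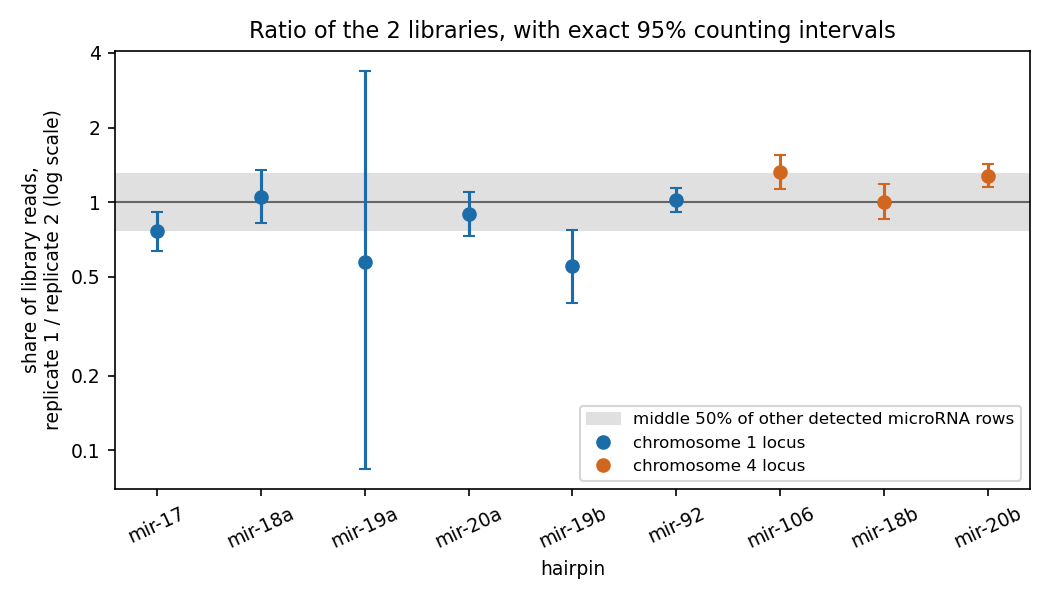
Ratio of the share of library reads in replicate 1 to that in replicate 2 for each hairpin on a log axis, with exact 95% counting intervals and a grey band between the quartiles of the other 93 detected microRNA rows (0.771 to 1.30). gga-mir-106 and gga-mir-20b lie above 1, gga-mir-17 and gga-mir-19b lie below it, and the interval of gga-mir-19a is widest.

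Rows around the loci were taken by listed start, the lower coordinate, within 500 kb of the hairpins. A long row that starts farther out but reaches closer would be missed. By this count fewer rows lay around the chromosome 1 locus. For chromosome 1 there were 3 other rows, 0 of them detected, beside 52.6% of all rows. With only 3 rows, this count says little about the surroundings. The nearest of these was ENSGALG00000017989, 335 kb away, with 4 and 1 reads. On the other side ENSGALG00000022747, 418 kb away, had 19 and 25 reads. For chromosome 4, 27 other rows were analysed, of which 18 were detected, beside the same 52.6% of all rows. GPC3, which encodes a glypican of the cell surface, lies 10.6 kb downstream of the hairpins on the same strand. GPC3 stood at 0.08 and 0.11 RPKM with 6 reads in each sample. On the other side PHF6, a chromatin-associated gene mutated in human T cell leukemia, started 23.8 kb away and stood at 36.6 and 35.8.

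HPRT1, which encodes an enzyme of purine salvage, lay 61.3 kb away at 48.3 and 41.2 RPKM. A second pair of hairpins lay beyond it on the minus strand, gga-mir-16c at 90.3 and 95.9 and gga-mir-15c at 8.73 and 8.77. The snoRNA row snoU109 reached 1609 and 1627, and SNORD61 57745 and 59047, far above the microRNA hairpins. Of the long genes in the window RBMX, which encodes an RNA-binding protein, was highest at 154 and 148, followed by MMGT1 at 76.7 and 66.6 and MOSPD1 at 52.6 and 44.4. The other detected rows (MBNL3, GPC4, FAM122B, FAM122A, DDX26B, MAP7D3, HTATSF1, ARHGEF6 and ENSGALG00000006487) had means between 1.80 and 28.7. The ratio of the libraries over these 18 rows ran from 0.758 to 1.24 with a median of 1.01, and 0 of 18 differed by 1.5-fold, beside 8.38% of all detected rows.

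Of the genes that make and use microRNAs, 15 of 16 measured members were detected, beside 52.6% of all rows and 59.5% of rows with a gene name. Their median was 10.1 RPKM against 1.83 over all rows and 4.02 over rows with a name. The helicase gene DDX5, whose protein joins the DROSHA complex, stood at 690 and 681. RAN, the GTPase that drives nuclear export, stood at 409 and 441, the related helicase gene DDX17 at 29.9 and 35.9, and the exonuclease gene XRN2 at 32.3 in both samples. The proteins of RAN and the helicases also act in many other processes.

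The nucleases themselves were lower. DROSHA, listed as RNASEN, stood at 8.29 and 9.74 and DICER1 at 8.35 and 9.82, while the hairpin exporter gene XPO5 was at 19.5 and 25.3. All 4 Argonaute genes were detected, with AGO2, listed as EIF2C2, at 13.2 and 17.2 and AGO3 at 12.7 and 16.1. The GW182 partner genes TNRC6A, TNRC6B and TNRC6C had means between 7.29 and 9.16. LIN28B, an inhibitor of let-7 processing, stood at 8.82 and 11.1, whereas its relative LIN28A was near 0, at 0.09 and 0.11 with 5 reads in each sample. Of the 16 members 14, the undetected LIN28A among them, were higher in replicate 2, beside 61.6% of all detected rows. By 1.5-fold 0 of the 16 differed, beside 8.38% of all detected rows, so with 16 members this count says little. DGCR8, TARBP2, PRKRA, HNRNPA1, KHSRP and SRRT were not analysed here.

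Of the factors tied to transcription of the human cluster, 5 of 6 measured were detected, beside the same 52.6% of all rows and 59.5% of named rows. E2F3 and E2F1, cell cycle factors that bind the promoter of the human cluster, stood at 40.9 and 40.0 and at 18.2 and 24.9. MYC stood at 30.0 and 45.4, and MYCN, the relative that drives the cluster in human neuroblastoma, at 0.11 and 0.02 with 6 reads and 1 read. CCND1, which encodes cyclin D1, stood at 36.2 and 38.8. MYC was 1.5-fold or more higher in replicate 2, as MYCN was in replicate 1 from a few reads. With 1 group, no relation between the level of a factor and that of the hairpins could be measured. MAX and E2F2 were not analysed here.

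Of genes reported as targets of these microRNAs in mammalian cells, 17 of 23 analysed were detected, with a median of 10.9 RPKM. Of rows with a name 59.5% were detected, with a median of 4.02 RPKM, and of all rows 52.6%, with a median of 1.83. JAK1, a cytokine receptor kinase, had the highest mean with 57.0 and 48.2, and SQSTM1, the autophagy receptor p62, stood at 45.5 and 56.4. E2F3, both a factor and a target of the miR-17 family, followed, and SOCS1, an inhibitor of cytokine signalling targeted by the miR-19 family, stood at 42.3 and 33.9. Among targets of the miR-17 family RBL1, a relative of the retinoblastoma gene, stood at 16.1 and 21.8, RB1 at 14.2 and 16.8, and the TGF-beta receptor gene TGFBR2 at 1.88 and 2.32.

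Members under 1 RPKM in both samples were CDKN1A, THBS1, CTGF, KLF2, KLF4 and DKK3. The row listed as CDKN1A, the cell cycle inhibitor p21, lies on chromosome 1 and had 0 reads in either sample. Its model is 169 bp long, so 3 reads, the limit that 0 allows, would be 0.447 and 0.584 RPKM. Whether this short model covers the p21 gene was not tested. THBS1, an inhibitor of blood vessel growth targeted by the miR-18 and miR-19 families, was at 0.13 and 0.10. CTGF, another secreted target of the miR-18 family, had 0 reads in replicate 1 and 2 in replicate 2. The rows listed as the miR-92 targets KLF2 (chromosome 8) and KLF4 (chromosome 28) were at 0.07 and 0.11 and at 0.07 and 0.24. Both were matched by symbol, and whether they are the genes so named is not known here. These levels were taken with the hairpins at 1 level, so they do not measure repression. BCL2L11, E2F2, RBL2 and ITGA5 were not analysed here.

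**Figure D5:**
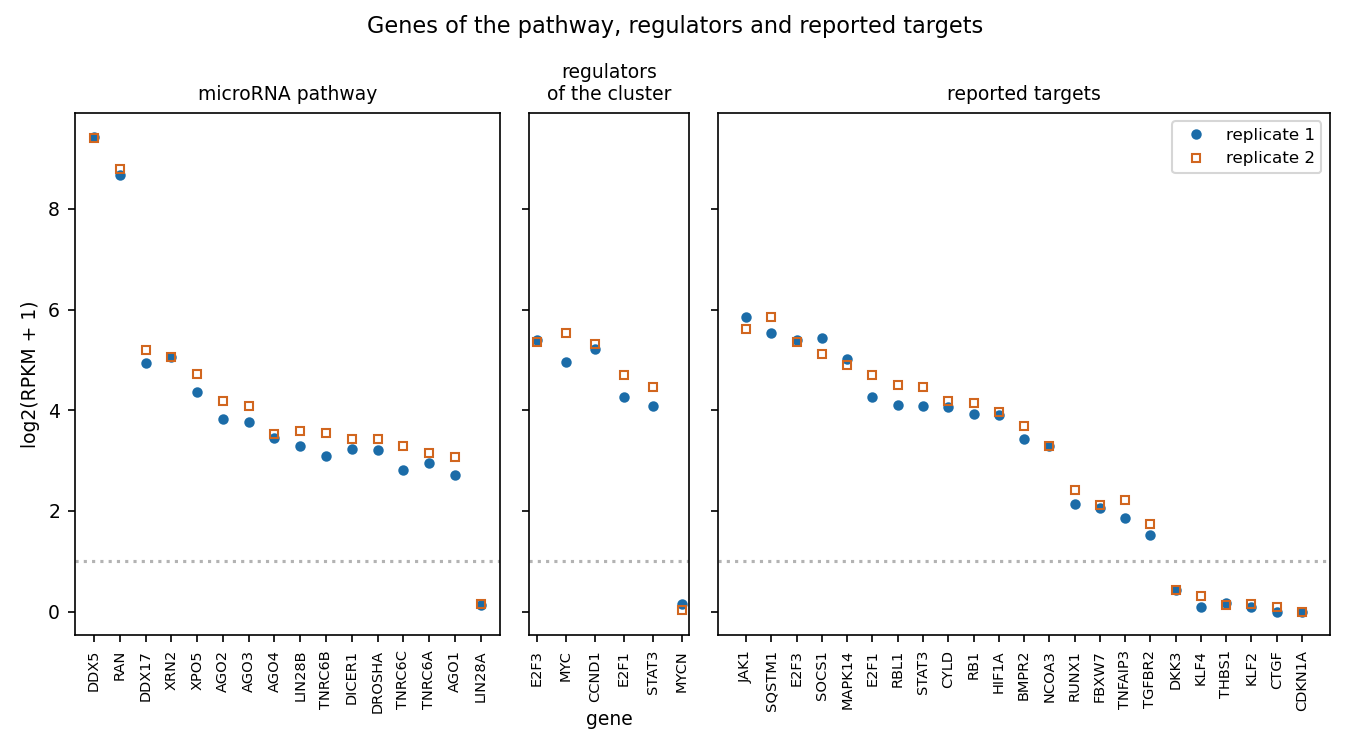
Levels as log2(RPKM + 1) of the measured genes of the microRNA pathway (16), of regulators of the cluster (6) and of reported targets (23), with filled circles for replicate 1 and open squares for replicate 2 (the dotted line marks 1 RPKM). LIN28A, MYCN and 6 of the targets lie below the line.

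Markers were read as a check of the label. Of the red cell markers 5 of 5 measured were detected, beside 59.5% of named rows and 52.6% of all rows, with HBAA, the alpha globin gene, at 1083 and 1252 RPKM and TFRC, the transferrin receptor gene, at 264 and 298. GATA1, TAL1, KLF1 and SLC4A1 were not analysed here. Of 13 measured markers of other blood cells and fibroblasts, 3 were detected, namely CD3E, 1 of 3 T cell markers, at 2.42 and 2.91 and both thrombocyte markers measured, GP9 at 6.22 and 5.77 and GP1BB at 11.7 and 13.5. EPB42, the lowest of the red cell markers measured, stood at 2.6 and 2.56, near CD3E and under both thrombocyte markers. The B cell markers, with BLNK highest at 0.24 and 0.15, and the macrophage markers were all under 1. Of the fibroblast markers COL1A2 stood at 0.88 and 1.57 and the row listed as COL1A1, on chromosome 7, at 0.04 and 0.11. Markers were matched by symbol, and whether that row is the gene so named is not known here. Over rows with at least 20 reads, the counts of the samples gave a chi-square of 54.7 for each degree of freedom, above sampling noise, and they were kept as 2 samples.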

How the data were processed

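Per the labels' protocols, total RNA was treated with DNase, depleted of ribosomal RNA, cut with RNase III, size selected and made into SOLiD Total RNA-Seq libraries. Short or folded RNAs can be over- or underrepresented by these steps. The sources used here name no aligner, counting rule, build or annotation release, while the header of the gene identifiers names Ensembl. The authors deposited read counts and RPKM values per gene in 1 table, per the file headers. Deposited RPKM could be recomputed from the counts, the listed length and totals 0.881% and 0.86% under the summed counts. Of 17934 rows, 1470 without a symbol held 0 reads and were left out.

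Ratios and shares of reads have exact Clopper-Pearson 95% intervals, which cover counting error only. A test of intervals on simulated data cannot show that they cover the spread between these samples, whose counts differed beyond sampling noise. Ratios between samples divide by the summed counts. A single group allowed no comparison of conditions and no p-value. The hairpins, gene lists and measures were chosen with earlier results of these data known. Named were all hairpins, the microRNA rows next to each in mean RPKM, and rows whose listed start lies within 500 kb. The 4 highest and first 2 undetected of each list and a few fixed genes were named too. Further list members, the highest microRNA rows and the markers were named after their values were seen. Some genes that the rule takes are left out of lists, counts and plots. BMPR2 was matched as BRK-3 through a RefSeq synonym, and some genes by an older symbol. Alternatives were another denominator, ranking by reads, pseudocounts of 1 and 0.1, other detection limits and leaving out a sample. Software was scipy 1.17.1, pandas 2.3.3, numpy 2.4.6 and matplotlib 3.10.9 under Python 3.11.15.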

Additional observations from a re-analysis of the deposited data

How the results depend on the processing

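Of 60 alternative values, 19 equalled the value given above, 47 (those 19 included) lay within 1 SD of it for levels and shares or within 1.5 times for counts and ranks, and 13 lay outside. With 2 samples, a level or share without 1 of them lies within 1 SD by construction. Ranking by reads in place of RPKM moved the median rank of the 9 hairpins from 14 to 25, since longer rows gather more reads. With the gga-let rows counted as microRNA rows, the median rank was 17. On the scale of log2(RPKM + 1), 1 hairpin in place of 2 differed by 1.5-fold between the samples, because the added 1 shrinks the ratio of gga-mir-19a. The mean share of microRNA reads, 5.28%, was 16.9% as a share of summed RPKM and 22.8% among rows under 200 bp, the latter chosen after seeing the data. A total without small RNA and mitochondrial rows, which held 38.9% and 39.8% of reads, raised every hairpin's RPKM by 1.64 and 1.66 times and brought gga-mir-19a past 1 in both samples. Leaving out a sample gave 8 to 9 detected hairpins, a median rank of 11 to 14, a share of 4.95 to 5.60% and 2 to 3 paralogue pairs whose interval excluded 1. gga-mir-19a was detected without replicate 1 and gga-mir-106 over gga-mir-17 passed without replicate 2. Detected targets numbered 19 at 0.1 RPKM and 13 at 5 RPKM, and the counts of pathway genes and regulators were the same at these limits. With 3 and 4 reads, the level of gga-mir-19a is limited by depth. No paired analysis was possible because the series has 1 group.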

Other observations

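Hairpins of gga-mir and gga-let rows under 200 bp that lie within 10 kb of each other on 1 strand formed 10 clusters of at least 3, a grouping made after the data were seen. The chromosome 4 and chromosome 1 loci had the highest summed mean RPKM of these, at 477 and 457, followed by 319 for the let-7 cluster on chromosome 12 (gga-let-7f, gga-let-7a-1 and gga-let-7d) and 242 for the cluster of gga-mir-130b, gga-mir-454, gga-mir-301a and gga-mir-130a on chromosome 15. On chromosome Z the cluster of gga-mir-24, gga-mir-23b and gga-mir-27b reached 179. The other 5 clusters each held at most 1 read per sample. Uneven levels within a cluster were not limited to the chromosome 1 locus, where the RPKM ratio of gga-mir-92 to gga-mir-19a was 260 in replicate 1 (exact 95% interval 88.5 to 1262) and 146 in replicate 2 (56.9 to 540), from 3 and 4 reads of gga-mir-19a. In the chromosome Z cluster gga-mir-24 stood at 148 and gga-mir-27b at 0.475. The latter was under 1 RPKM in both samples, at 0.26 and 0.69, so this contrast rests on a value near the floor. On chromosome 12 gga-let-7f stood at 294 and gga-let-7d at 6.79. gga-let-7f held 92.1% of the summed mean RPKM of its cluster, gga-mir-130b 53.1%, gga-mir-92 53.2% and gga-mir-20b 51.7%.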
